A study of Mus musculus with 12 samples.

Results

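Klf2, Klf4 and Klf5 were followed through every array of an experiment in mouse embryonic stem (ES) cells. All probes that the platform annotation assigns to these 3 genes were taken. They were 6 of the 38561 probes of the normalized value table, for 3 of its 18524 genes with a probe of their own, of which 1 was a Klf2 probe, 3 were Klf4 probes and 2 were Klf5 probes. Tcf15-E47 cells, in which doxycycline (dox) switches on Tcf15 joined to E47, had been given 1 µg/mL dox for 0, 8, 12 or 24 h. The parental cells had been given the same dose for 0 or 8 h. All cells were E14tg2a, an ES cell line of the 129/P2 strain, grown in GMEM with LIF and FCS. Each of the 6 groups held 2 arrays (n = 2), 12 in all, and no label says that these were separate cultures, so the p-values measure only the spread between these samples, which may be technical. The labels do not say whether the Tcf15-E47 line is 1 clone or which promoter drives the fusion in it. The parental cells had no arrays at 12 and 24 h, so the time in dox and the action of the fusion cannot be told apart at those times.

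Klf2, Klf4 and Klf5 are zinc finger transcription factors of the Krüppel-like family, which bind GC-rich and CACCC-containing DNA. In mouse ES cells all of them belong to the network of naive pluripotency, and they can partly stand in for one another in self-renewal. Klf4 is known as a target of the LIF and STAT3 pathway and as one of the factors used to reprogram somatic cells. Tcf15 belongs to the basic helix-loop-helix (bHLH) factors. E47, made from the gene Tcf3, is a common partner of such factors, and their dimers bind E-boxes.

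The promoters are shown because the fusion is a bHLH dimer and the genes studied encode CACCC-binding factors. RefSeq on mouse build GRCm38.p6 places Klf2 (gene ID 16598) at chr8:72319062-72321654, Klf4 (gene ID 16600) at chr4:55527137-55532475 and Klf5 (gene ID 12224) at chr14:99298691-99313412. The promoter table held 2 of the 3 genes, Klf2 and Klf4. The lines give the 250 bases before the annotated start, 5′ to 3′ on the strand of the gene, from RefSeq on GRCm38.p6, with every E-box (CANNTG) in capitals.
Klf2, chr8:72318812-72319061, plus strand: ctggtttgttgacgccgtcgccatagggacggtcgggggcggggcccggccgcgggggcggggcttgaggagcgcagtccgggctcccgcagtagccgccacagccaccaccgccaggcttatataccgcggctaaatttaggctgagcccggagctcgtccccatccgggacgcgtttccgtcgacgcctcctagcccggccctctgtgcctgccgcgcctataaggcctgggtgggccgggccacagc
Klf4, chr4:55532476-55532725, minus strand: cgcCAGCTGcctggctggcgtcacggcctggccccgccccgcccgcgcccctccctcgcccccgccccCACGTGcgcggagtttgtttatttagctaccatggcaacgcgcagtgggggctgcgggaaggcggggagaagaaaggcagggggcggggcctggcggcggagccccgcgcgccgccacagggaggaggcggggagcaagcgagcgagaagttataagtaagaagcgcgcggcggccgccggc
The Klf4 window held 2 E-boxes, CAGCTG beginning 247 bases and CACGTG beginning 182 bases before the start, while the Klf2 window held 0. On both strands, CACCC matched 1 time in the Klf2 window, as GGGTG beginning 19 bases before the start, and 0 times in the Klf4 window. Of 32851 mouse promoters of the same length, 66.2% held CANNTG, 13% held CAGCTG, which is one form of it, and 52% held CACCC. The G and C content was 71.2% for Klf2 and 74% for Klf4. These matches describe letters only, and nothing about binding was measured.

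The libraries carried the markers of ES cells. All 6 measured genes of the ES cell list were detected on both arrays of every group, and their summed signal lay between 30350 and 32720. Between 30.7% and 34.7% of the probes were detected on an array, meaning a detection p under 0.01. The 2 arrays of a group correlated at 0.993 to 0.9961. One library stood apart, parental cells at 8 h, replicate 2. Its summed fibroblast marker signal was 2792 with 7 of 10 markers detected, against 367.9 to 485.7 on the other 11 arrays. Acta2 stood out, at 11.03 there and 5.48 on the other 8 h parental array. Vim read 8.75 and 8.16, Thy1 7.53 and 6.96, and Dcn 4.92 and 4.84. Col3a1, Lum and Postn were detected on neither of these arrays. Results that use the 8 h parental arrays are therefore given with and without replicate 2. Of 7 endothelial markers 2, Pecam1 and Tek, were detected on both arrays of every group, with a summed signal of 114 to 176, and Cdh5, Emcn, Erg, Kdr and Tie1 were detected on no array. Of 7 trophectoderm markers 2, Krt8 and Krt18, were detected on both arrays of every group, with a summed signal over the list of 190.9 to 260, and Cdx2, Elf5 and Eomes on no array. Of 8 primitive endoderm markers 3 to 5 were detected on both arrays of a group, and Gata4, Pdgfra and Sox17 on no array. Both Tcf3 probes were higher in Tcf15-E47 cells after dox: at 24 h against 0 h, ILMN_2596277 rose by 1.07 ± 0.158 log2 units (SE, adjusted p = 0.00388) and ILMN_2596278 rose by 0.93 ± 0.199 (SE, adjusted p = 0.0264). The Tcf15 probe differed by 0.10 ± 0.103 (SE, adjusted p = 0.663). Whether these probes lie in the construct is not known here.

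Of the 6 probes 5 were detected on at least 2 arrays and entered the test: Klf2 ILMN_2604029, Klf4 ILMN_2999439, ILMN_1241903 and ILMN_1221264, and Klf5 ILMN_1253387. Each was detected on all 12 arrays. The other Klf5 probe, ILMN_2433293, was detected on 0 of 12 arrays, with detection p-values between 0.471 and 0.984, and it says nothing of Klf5. All levels below are normalized log2 signals, background-corrected and quantile normalized, and a probe counts as called when limma's adjusted p over 13914 probes is under 0.05. RNA came from whole cultures, so fewer cells of a type and less RNA per cell cannot be told apart.

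Klf2 had its lowest group means in Tcf15-E47 cells after 12 and 24 h of dox, and the difference from 0 h did not pass the test across all probes. In Tcf15-E47 cells the Klf2 probe read 11.45 and 11.37 at 0 h, 11.48 and 11.09 at 8 h, 11 and 11.11 at 12 h, and 10.97 and 11.01 at 24 h. In parental cells it read 11.28 and 11.22 at 8 h and 11.35 and 11.22 at 0 h. Both 12 h arrays and both 24 h arrays lay below both 0 h arrays of the same line, while the 8 h arrays spanned the 0 h arrays.

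Klf2 averaged 10.99 ± 0.03 at 24 h and 11.41 ± 0.06 at 0 h in Tcf15-E47 cells (SD, n = 2 each). By limma this was a difference of −0.42 ± 0.125 log2 units (SE; 95% interval −0.69 to −0.15), or 1.34-fold lower, with an adjusted p of 0.091. At 12 h it averaged 11.06 ± 0.08, against the same 0 h arrays, a difference of −0.35 ± 0.125 (SE; 95% interval −0.62 to −0.08), or 1.28-fold lower, with an adjusted p of 0.119 by limma. Only 3.42% of the 13914 probes had a lower difference than Klf2 at 24 h, and 7.27% at 12 h. The call depended on the processing. With limma's trend and robust options the adjusted p was 0.00755 at 24 h and 0.0188 at 12 h, and on the values as deposited, without background correction, it was 0.0285 and 0.0438. The authors' deposited table gave Klf2 a log2 fold change of −0.41 with an adjusted p of 0.0775 at 24 h, and −0.34 with 0.116 at 12 h.

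At 8 h Klf2 averaged 11.29 ± 0.27 in dox-treated and 11.41 ± 0.06 in untreated Tcf15-E47 cells (SD, n = 2 each), a difference of −0.12 ± 0.125 (SE, adjusted p = 0.999). The parental cells averaged 11.25 ± 0.04 with 8 h of dox and 11.29 ± 0.10 without (SD, n = 2 each), a difference of −0.03 ± 0.125 (SE, adjusted p = 0.986). The response of Tcf15-E47 cells beyond that of parental cells was −0.09 ± 0.177 for Klf2 (SE, adjusted p = 0.987), and −0.12 without parental replicate 2 at 8 h. From 8 to 12 h the difference was −0.23 (adjusted p = 0.349), and from 12 to 24 h it was −0.07 (adjusted p = 0.832). The group means of Klf2 ran, from the highest, Tcf15-E47 at 0 h, parental at 0 h, Tcf15-E47 at 8 h, parental at 8 h, then Tcf15-E47 at 12 h and 24 h. Every neighbouring pair in that order overlapped except Tcf15-E47 at 0 h with parental at 0 h, where the arrays did not cross, and parental at 8 h with Tcf15-E47 at 12 h.

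No dox difference of Klf4 passed the test, and its 3 probes stood apart between the lines. The Klf4 probe with the strongest signal, ILMN_2999439, read 7.83 and 8.05 at 0 h, 7.84 and 7.99 at 8 h, 7.70 and 7.76 at 12 h, and 7.81 and 7.95 at 24 h in Tcf15-E47 cells. In parental cells it read 8.34 and 8.50 at 8 h and 8.40 and 8.41 at 0 h. All 4 parental arrays lay above all 8 Tcf15-E47 arrays. The second probe, ILMN_1241903, lay between 6.69 and 7.01 on the 8 Tcf15-E47 arrays and between 7.32 and 7.54 on the 4 parental arrays. The third, ILMN_1221264, lay between 5.61 and 6.08 on the Tcf15-E47 arrays and between 6.28 and 6.51 on the parental arrays. Each of the 3 probes, all of the same gene, thus separated the lines on every array. How many of all probes did so was not counted. With 2 arrays against 2, a looser rule, arrays did not overlap for 48% of all probes between the untreated lines. Between the lines at 8 h the share was 50.9%. Whether the separation on every array is unusual is therefore not known here.

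The differences of Klf4 over time in dox were as follows. At 24 h against 0 h in Tcf15-E47 cells the 3 probes differed by −0.06 ± 0.113, −0.18 ± 0.111 and −0.22 ± 0.129 (SE; adjusted p = 0.834, 0.429 and 0.402, in the order above). At 12 h against 0 h they differed by −0.21 ± 0.113, −0.04 ± 0.111 and −0.17 ± 0.129 (SE; adjusted p = 0.287, 0.854 and 0.475). The lower ends of the 95% intervals, in the same order, were −0.3, −0.42 and −0.5 at 24 h. At 12 h they were −0.46, −0.28 and −0.45. Falls up to those sizes lay within the intervals, as did no change. At 8 h against 0 h the largest of the 3 differences was 0.03 (adjusted p = 0.999 for each probe). From 8 to 12 h ILMN_2999439 differed by −0.19 (adjusted p = 0.399), and from 12 to 24 h by 0.15 (adjusted p = 0.535). In parental cells the 8 h differences were 0.02, −0.05 and −0.05, and −0.06, −0.06 and −0.11 without replicate 2 at 8 h. With median scaling the 24 h difference of ILMN_2999439 and the 12 h difference of ILMN_1241903 were each 0.01, the opposite sign.

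No dox difference of Klf5 passed the test. The detected Klf5 probe read 11.09 and 10.92 at 0 h, 11.09 and 10.93 at 8 h, 11.01 and 11 at 12 h, and 11.20 and 10.92 at 24 h in Tcf15-E47 cells. In parental cells it read 11.47 and 11.33 at 8 h and 11.54 and 11.69 at 0 h. The 4 times of Tcf15-E47 cells overlapped, and all 4 parental arrays were higher than all 8 Tcf15-E47 arrays, a separation not counted over all probes. The 24 h difference was 0.06 ± 0.122 (SE; 95% interval −0.20 to 0.32; adjusted p = 0.85) and the 12 h difference was 0.00 ± 0.122 (SE; 95% interval −0.27 to 0.26; adjusted p = 0.993). In parental cells Klf5 averaged 11.40 ± 0.09 with 8 h of dox and 11.61 ± 0.10 without (SD, n = 2 each), a difference of −0.21 ± 0.122 (SE; 95% interval −0.48 to 0.05; adjusted p = 0.826). These parental arrays did not overlap, and the difference was −0.15 without parental replicate 2 at 8 h. The 8 h response of Tcf15-E47 cells beyond that of parental cells was 0.22 ± 0.173 for Klf5 (SE; 95% interval −0.15 to 0.59; adjusted p = 0.975), and 0.15 without that replicate. For the Klf4 probes it was −0.04, 0.05 and 0.08, and 0.04, 0.06 and 0.14 without that replicate. Whether Klf2, Klf4 and Klf5 responded differently from one another was not tested.

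**Figure D1:**
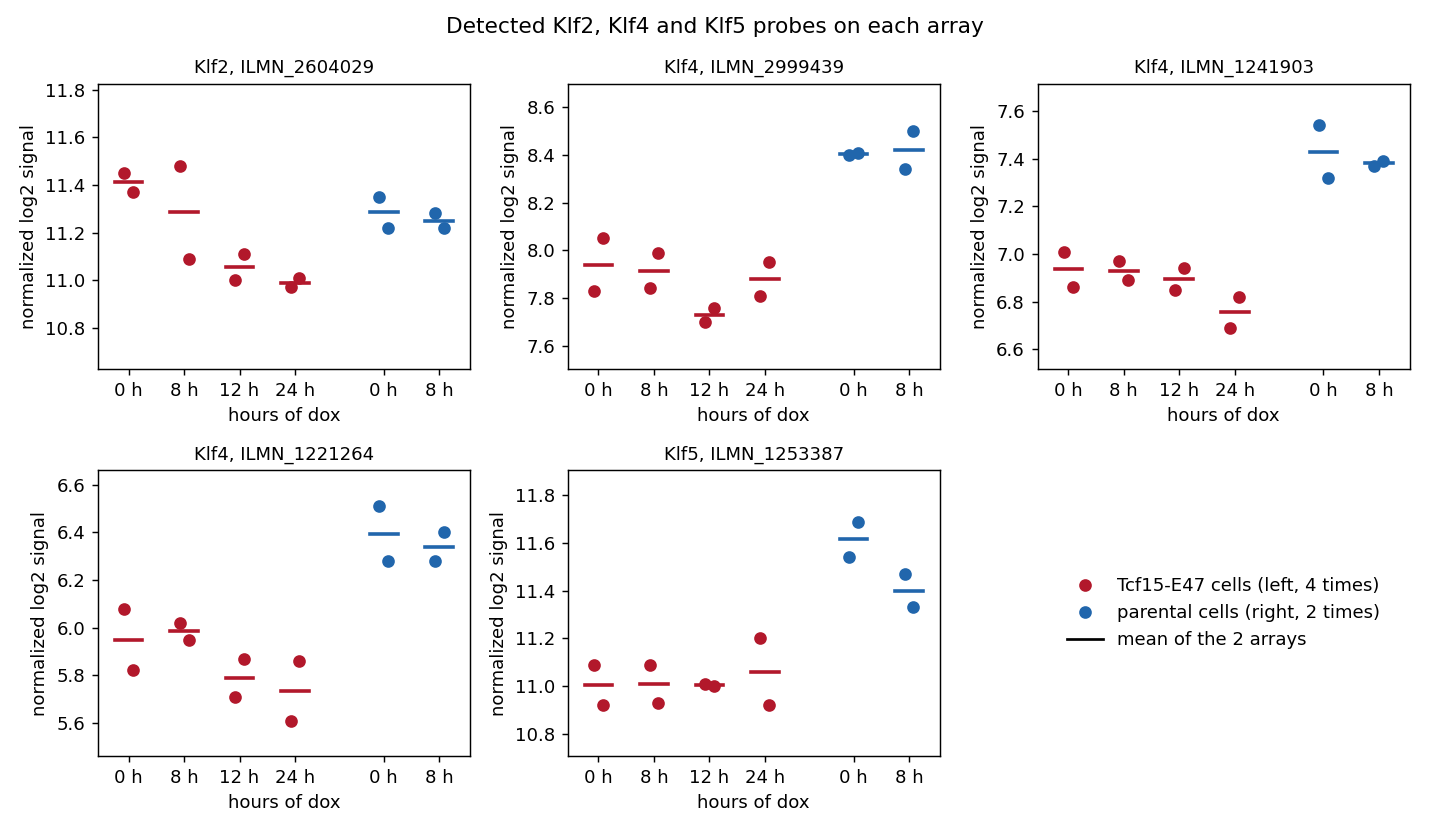
Normalized log2 signal (y axis) of the 5 detected Klf2, Klf4 and Klf5 probes on each of the 12 arrays, against hours of dox (x axis), with Tcf15-E47 cells on the left of each panel and parental cells on the right. Points are arrays and bars are group means (n = 2). The Klf2 means of Tcf15-E47 cells are lowest at 12 and 24 h. The parental points of the 3 Klf4 probes and of Klf5 lie above all Tcf15-E47 points, a separation not counted over all probes.

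In the dox comparisons the count of called probes was 0 of 5 throughout. At 8 h against 0 h in Tcf15-E47 cells limma called 0.0144% of all 13914 probes. An unadjusted p under 0.05 was held by 596 of all probes and 0 of the 5. At 12 h against 0 h limma called 6.07% of all probes, and 3137 of them had an unadjusted p under 0.05. Of the 5, 1 had such a p, Klf2. All 5 differences were negative, with a median of −0.17, but Klf5 rounded to 0.00 and 3 of the 5 were probes of Klf4. At 24 h against 0 h limma called 3.06% of all probes, and 2533 of them had an unadjusted p under 0.05. Again 1 of the 5, Klf2, had such a p, and 4 of 5 differences were negative with a median of −0.18. The median over all probes was 0.01 at 12 h and 0.00 at 24 h. Of the 5 probes, 2 had arrays that did not overlap at 12 h, Klf2 and Klf4 ILMN_2999439, and 2 at 24 h, Klf2 and Klf4 ILMN_1241903. Among all probes 56% did not overlap at 12 h and 47.8% at 24 h. From 8 to 12 h limma called 3.25% of all probes and from 12 to 24 h 0.949%, with 0 of the 5 called in either step. An unadjusted p under 0.05 was held by 2625 and 2248 of all probes in these steps, and by 0 of the 5 in either. In parental cells at 8 h limma called 0% of all probes, with 880 at an unadjusted p under 0.05, and 0 of the 5 had such a p. There Klf5 alone of the 5 had arrays that did not overlap, as did 32.8% of all probes. The 8 h response of Tcf15-E47 cells beyond that of parental cells was called for 0% of all probes, with 721 at an unadjusted p under 0.05, and again 0 of the 5.

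Before any dox, Klf4 and Klf5 were lower in Tcf15-E47 cells than in parental cells, while the Klf2 difference did not pass the test. Klf5 averaged 11 ± 0.12 in untreated Tcf15-E47 cells and 11.61 ± 0.10 in untreated parental cells (SD, n = 2 each). Klf5 was 1.53-fold lower, a difference of −0.61 ± 0.122 (SE; 95% interval −0.87 to −0.35; adjusted p = 0.0205). Klf4 ILMN_2999439 averaged 7.94 ± 0.15 in Tcf15-E47 and 8.40 ± 0.01 in parental cells (SD, n = 2 each) and was 1.38-fold lower, at −0.46 ± 0.113 (SE, adjusted p = 0.0431). Klf4 ILMN_1241903 was 1.41-fold lower, at −0.49 ± 0.111 (SE, adjusted p = 0.0313). Klf4 ILMN_1221264 had a like difference, −0.44 ± 0.129 (SE), that did not pass (adjusted p = 0.0777). Klf2 differed by 0.12 ± 0.125 (SE; 95% interval −0.15 to 0.39; adjusted p = 0.628).

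Thus 3 of the 5 probes were called lower between the untreated lines, where limma called 3.51% of all probes in either direction and 1.8% lower. The arrays of all 5 did not overlap, as for 48% of all probes. As the mean of its 3 probes, Klf4 differed by −0.47 (adjusted p = 0.0223). Only 0.791% of all probes had a lower difference than Klf5. These calls rest on few arrays: without either untreated Tcf15-E47 array none of the 3 held, without parental replicate 1 only Klf5 held, and without parental replicate 2 only Klf4 ILMN_1241903 held, with differences of −0.36 to −0.69 throughout for the 3 probes. With median scaling in place of quantile normalization the median of all probes shifted by 0.13. Klf5 then stood at −0.42 (adjusted p = 0.123), Klf4 ILMN_2999439 at −0.31 (adjusted p = 0.229) and Klf2 at 0.34 (adjusted p = 0.226). Fitted on the 4 arrays compared alone, Klf5 had an adjusted p of 0.0834 and limma called 0 of the 5. The authors' deposited table subtracts the other way, parental minus Tcf15-E47. It gave Klf5 0.59 (adjusted p = 0.00957), Klf4 0.37 (0.0171), 0.33 (0.0135) and 0.21 (0.0879) for the probes in the order above, and Klf2 −0.12 (0.704).

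The line difference was also present at 8 h of dox, a comparison added after the values had been seen. At 8 h Klf4 ILMN_2999439 averaged 7.92 ± 0.10 in Tcf15-E47 cells and 8.42 ± 0.12 in parental cells (SD, n = 2 each). It was 1.42-fold lower, at −0.51 ± 0.113 (SE, adjusted p = 0.039). This was the 1 called probe of the 5, where limma called 2.21% of all probes and 1.31% lower. The arrays of 4 of the 5 did not overlap, all but Klf2, as for 50.9% of all probes. Klf4 ILMN_1241903 differed by −0.45 ± 0.111 (adjusted p = 0.0548), Klf4 ILMN_1221264 by −0.36 ± 0.129 (adjusted p = 0.16), Klf5 by −0.39 ± 0.122 (adjusted p = 0.112) and Klf2 by 0.03 ± 0.125 (adjusted p = 0.927), with SE. Without parental replicate 2, the library with fibroblast markers, the Klf4 ILMN_2999439 difference was −0.42 (adjusted p = 0.24) and the Klf5 difference −0.46 (adjusted p = 0.245). Leaving out any other of the 4 arrays also ended the call.

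Marker levels of other cell types were set beside the line difference. Of 10 fibroblast markers, 3 were detected on both arrays of untreated Tcf15-E47 cells and 2 on both arrays of untreated parental cells, and their summed signal was 390.8 to 393.4 in Tcf15-E47 and 396 to 485.7 in parental cells. Of the 4 tested, Dcn was called higher; it was not above background on either untreated parental array and was at least 1.61-fold higher in Tcf15-E47 cells (adjusted p = 0.0104). The differences of the other tested markers were negative and did not pass: Vim −0.29 (adjusted p = 0.38), Acta2 −0.23 (adjusted p = 0.935) and Thy1 −0.15 (adjusted p = 0.644). The summed primitive endoderm signal was 411.2 to 411.6 in untreated Tcf15-E47 cells and 491.3 to 627.1 in untreated parental cells, with 5 of 8 markers detected in both. All 5 tested markers had negative differences there, with a median of −0.34, and 1 was called lower. Between the lines at 8 h, 2 were called lower. The sum was 233.9 to 256.6 at 12 h and 256.4 to 261.5 at 24 h in Tcf15-E47 cells, with 3 of 8 detected on both arrays. Against 0 h, 2 of the 5 were called lower at each of these times. At 24 h 1 of them, Sox7, was not well above background and was at least 1.04-fold lower. The summed trophectoderm signal was 204.6 to 206 in untreated Tcf15-E47 cells and 231.6 to 235.4 in untreated parental cells. The part of these cell types in the Klf differences was not tested.

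**Figure D2:**
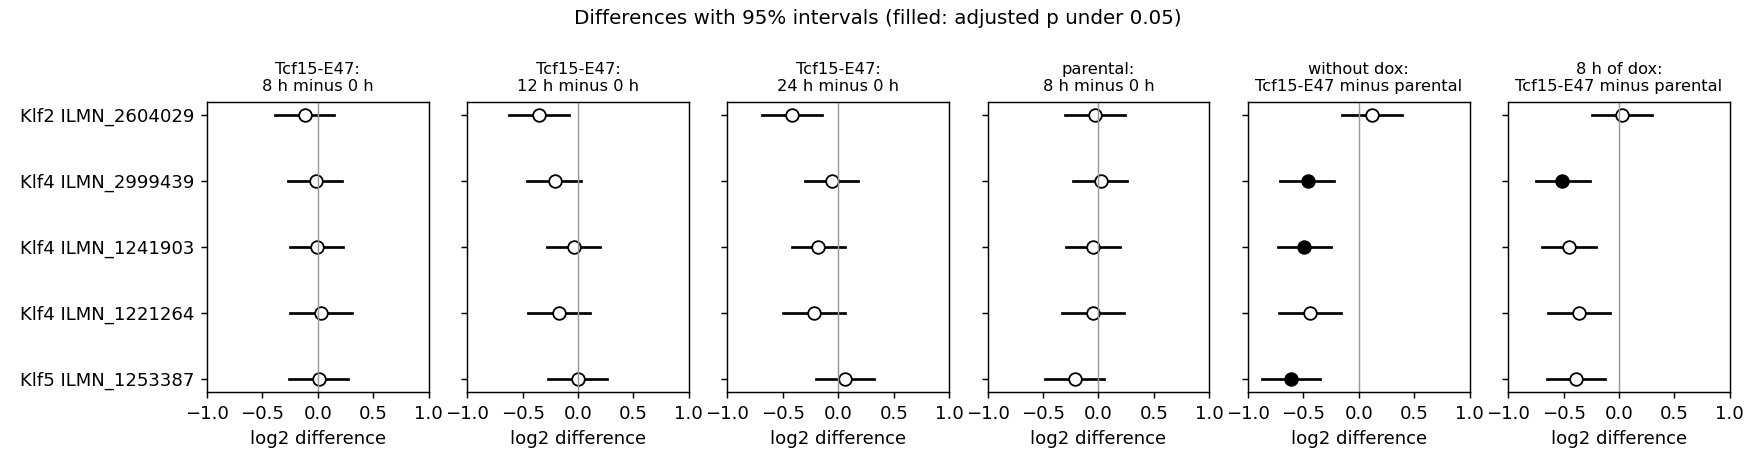
Log2 differences (x axis) of the 5 detected probes (rows), with 95% intervals from limma, one panel per comparison; filled points have an adjusted p under 0.05. Klf2 lies below 0 at 12 and 24 h of dox with open points at −0.35 and −0.42, and the filled points belong to Klf4 and Klf5 between the lines.

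The other tested genes of the naive network gave the setting for the Klf values. Of 15 listed genes 14 were tested. At 12 h against 0 h in Tcf15-E47 cells 3 were called lower and 0 higher, with a list median of −0.26 (−0.20 with Nr0b1, not well above background at 12 h, at its bound). Nanog, a homeodomain factor of the network's core, read 9.82 and 9.94 at 12 h and 11 and 11.04 at 0 h, and fell by 1.14 ± 0.0961 (SE, adjusted p = 0.000121). The T-box factor Tbx3 fell by 0.66 (adjusted p = 0.0121), and Tfcp2l1, a factor downstream of STAT3, fell by 0.47 (adjusted p = 0.0401). Esrrb, a nuclear receptor, differed by −0.33 (adjusted p = 0.0826), close to Klf2 in size.

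At 24 h against 0 h 6 of the 14 were called lower and 0 higher. Nanog fell by 0.99 (adjusted p = 0.000346), Nr5a2, a nuclear receptor that acts upstream of Oct4 (Pou5f1), by 0.77 (adjusted p = 0.00388), and Tbx3 by 0.67 (adjusted p = 0.019). Prdm14 was not well above background on either 24 h array and was at least 1.25-fold lower than at 0 h (adjusted p = 0.0418). The list median was −0.45, and −0.26 with Prdm14 and Nr0b1, also not well above background at 24 h, at their bounds. With median scaling 1 gene was called lower at 12 h and 3 at 24 h. Between the untreated lines 0 of the 14 were called, with a median of −0.07 (1 lower, Tbx3, on the deposited values and with trend and robust moderation). The 12 h, 24 h and line comparisons share the untreated Tcf15-E47 arrays.

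**Figure D3:**
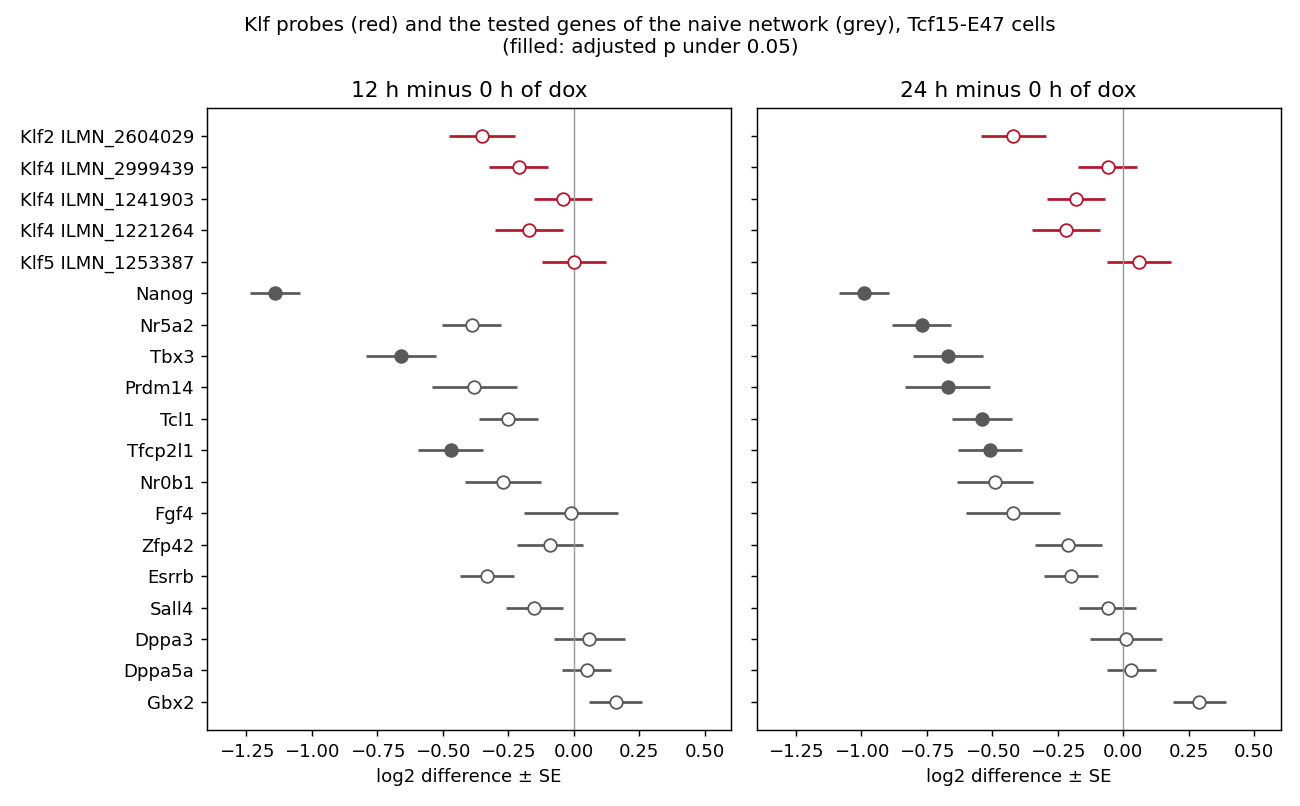
Log2 differences with SE (x axis) of the Klf probes (red) and the 14 tested genes of the naive network (grey) in Tcf15-E47 cells, at 12 h and at 24 h against 0 h of dox. Filled points have an adjusted p under 0.05; Nanog is the lowest at both times, Klf2 lies among the grey genes at −0.35 and −0.42, and Klf5 is near 0. Prdm14 and Nr0b1 were not well above background at 24 h, so their points there are fitted values only.

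The rest of the Krüppel-like and Sp families was measured less fully. Of 23 listed genes 9 were tested, Klf3, Klf6, Klf7, Klf9, Klf13, Klf16, Sp1, Sp5 and Sp6, and limma called 0 in every comparison, with 1 call, Klf9 lower at 12 h, under trend and robust moderation. At 24 h against 0 h their median was 0.02. Klf6 differed by 0.37 (adjusted p = 0.159) and Sp6 by 0.38 (adjusted p = 0.219). Their median between the untreated lines was −0.01, and Klf7 had the difference of −0.34 (adjusted p = 0.227).

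The LIF and STAT3 list, which holds regulators upstream of Klf4, changed in 1 gene. Of 11 tested genes Socs3, a feedback inhibitor of JAK and STAT signalling, was the 1 called. It read 9.94 and 9.83 at 12 h and 9.47 and 9.39 at 0 h in Tcf15-E47 cells, and rose by 0.46 ± 0.107 (SE, adjusted p = 0.0248). At 24 h Socs3 differed by 0.20 (adjusted p = 0.356), and 0 of 11 were called. Stat3 differed by −0.30 (adjusted p = 0.248) at 12 h and by −0.19 (adjusted p = 0.538) at 24 h. Untreated lines did not differ in a called gene, 0 of 11, with a list median of −0.08, and Stat3 differed by −0.22 (adjusted p = 0.426).

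Among general pluripotency factors, 9 of 10 were tested. Utf1, a chromatin-associated factor of ES cells, rose by 0.46 at 12 h (adjusted p = 0.0355) and by 0.51 at 24 h (adjusted p = 0.0359), and 0 were called lower. With median scaling Utf1 was called at neither time, and with the compared arrays alone it was called at 12 h only. Pou5f1 differed by −0.30 (adjusted p = 0.119) at 12 h and −0.18 (adjusted p = 0.389) at 24 h, and Sox2 by −0.32 (adjusted p = 0.139) and −0.39 (adjusted p = 0.103). On the deposited values and with trend and robust moderation Pou5f1 was called lower at 12 h and Sox2 at 24 h.

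The probes' courses over the 12 arrays were set against each other and against the other genes as a description; arrays share the normalization and the line difference. The 3 Klf4 probes correlated with each other at 0.864 to 0.972. Klf5 correlated with them at 0.754 to 0.826, and Klf2 with them at 0.284 to 0.545 and with Klf5 at 0.237. Among 8536 other genes, those with the highest Pearson r with Klf2 were Iqce at 0.938, Slc6a6 at 0.9, Rpp25 at 0.894, Dsg2 at 0.888 and Lzts3 at 0.881. With Klf4 ILMN_2999439 they were Krcc1 at 0.976, Fstl1 at 0.96, Kdm2b at 0.959, Furin at 0.958 and Pkp4 at 0.952. With Klf5 they were Troap at 0.973, Ddx39b at 0.955, Osgep at 0.951, Zfp523 at 0.948 and Amn at 0.947. The 3 sets of 5 shared no gene, but sets this small out of 8536 genes say little of how alike the courses are.

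**Figure D4:**
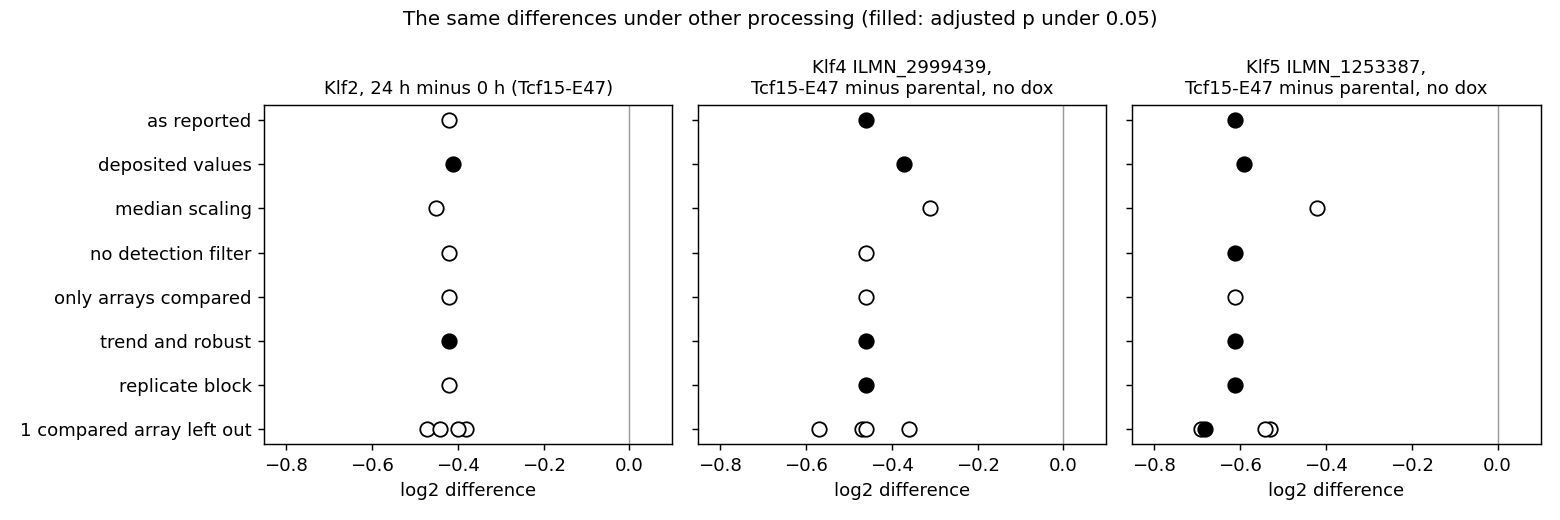
Log2 differences (x axis) of Klf2, Klf4 and Klf5 under each processing setting (rows), filled where the adjusted p is under 0.05. Klf2 at 24 h stays between −0.38 and −0.47 with 1 compared array left out, and is called on the deposited values and with trend and robust moderation. The Klf4 and Klf5 differences between the untreated lines stay below 0. They lose their calls with median scaling, with the compared arrays alone and in most fits with 1 compared array left out.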

How the data were processed

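RNA of 12 samples of mouse ES cells in 6 groups was purified with Absolutely RNA kits, and 100 ng per sample was turned into biotin-labelled cRNA for Illumina BeadChips, per the labels' protocols. Per the file headers, the deposited non-normalized table holds a bead signal intensity and a detection p-value per entry and array. The deposited normalized table holds log2 values, whose equal quantiles on every array show quantile normalization, with no background subtracted. The submitters' processing notes name limma, with no version. Another deposited table holds the authors' own log2 fold changes with adjusted p-values.

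The 30854 entries' names match 0 of 38561 probes. Signals were therefore matched by value: 17058 entries found a probe, and each array's curve gave the other probes their signal and detection p. Of the matched entries 8529 were then held out of the curves, and all (100%) found the same probe, with a median miss of 9.3e-06 log2 units. They had already passed the match, so this check could hardly fail, and it does not cover the unmatched entries. The Klf2 signal is a matched entry, and the Klf4 and Klf5 signals come from the curve. The entry nearest the mean of the 3 recovered Klf4 probes lay 0.00029 log2 units away, and that of the 2 Klf5 probes 0.0032. The steps of the detection p implied 936 negative controls. Signals were background-corrected and quantile normalized with neqc (offset 16). Probes whose detection p was under 0.01 on 2 or more arrays, 13914 in all, were kept. limma 3.58.1 (R 4.3.3; Python 3.11.15 for the matching) fitted every kept probe over all 12 arrays (lmFit, contrasts, eBayes; 6 residual and 7.08 prior degrees of freedom), with Benjamini-Hochberg adjustment over all 13914 and a threshold of 0.05. Differences are group means, first group minus second, 95% intervals are from the moderated fit, and the small number of arrays limits the precision. A gene of a list stands by its brightest kept probe.

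All 6 probes were to be named, the 5 genes most like each, called genes of each list up to 4 by size, and Nanog, Esrrb, Stat3, Socs3, Pou5f1 and Sox2. Genes named outside that rule (Tcf15, Tcf3, Klf6, Klf7, Klf9, Sp6, Nr0b1 and the markers) were chosen after their values were seen. The members and lists were chosen with earlier results of these data known. The 8 h comparison between lines, and the mean of a gene's probes, were added after seeing the data. Alternatives were the deposited values, median scaling, no filter, 1 probe or mean per gene, only the arrays compared, trend and robust moderation, a replicate block and leaving out each array. The fit was tested on simulated data.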

Additional observations from a re-analysis of the deposited data

How the results depend on the processing

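Of 524 refits of single probe differences, 492 kept their side of the threshold, 24 lost a call, 8 gained one and 0 called values reversed. Among the 492, 49 differences that were called in neither fit changed sign. Calls among the 5 probes moved as follows. On the deposited values limma called 1 (Klf2) at 12 h against 0 h and 1 (Klf2) at 24 h against 0 h, and 3 between the lines at 8 h, where Klf4 ILMN_1241903 (−0.29, adjusted p = 0.0231) and Klf5 (−0.37, adjusted p = 0.0322) joined Klf4 ILMN_2999439. Trend and robust moderation gave the same counts of 1, 1 and 3. Between the untreated lines, median scaling and the compared arrays alone each gave 0. Between the lines at 8 h, median scaling, no filter on detection and the compared arrays alone each gave 0. Leaving out 1 compared array gave 0 to 1 calls between the untreated lines and 0 to 0 between the lines at 8 h. Klf2 at 24 h ranged over −0.47 to −0.38 with adjusted p-values of 0.219 to 0.312, and at 12 h over −0.41 to −0.29 with 0.208 to 0.42. Replicate numbers were not taken to pair the samples, since no label says so and not every pair of groups correlated. Over 15 pairs of groups the deviations of same-numbered arrays correlated at −0.0794 to 0.151. The 3 pairs over 0.1 were all of Tcf15-E47 groups, 0 with 8 h at 0.103, 0 with 24 h at 0.119 and 8 with 24 h at 0.151. The fit with the replicate block changed no call among the 5 probes, with Klf4 ILMN_2999439 at −0.51 (adjusted p = 0.0263) between the lines at 8 h, Klf5 at −0.61 (adjusted p = 0.0216) between the untreated lines and Klf2 at −0.42 (adjusted p = 0.0885) at 24 h.

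Over all probes the calls, higher and lower, were 332 and 513 at 12 h, 173 and 253 at 24 h, and 237 and 251 between the untreated lines. On the deposited values they were 609 and 667, 305 and 370, and 431 and 498. With trend and robust moderation they were 544 and 740, 307 and 432, and 482 and 505. With median scaling they were 221 and 229, 132 and 99, and 387 and 60, so the split between the untreated lines turned to mostly higher. With the compared arrays alone they were 18 and 30 between the untreated lines and 91 and 144 at 24 h, and with no filter 112 and 165 at 24 h. The smallest counts with 1 array left out were 33 and 111 at 12 h, 32 and 39 at 24 h, and 23 and 29 between the untreated lines. The undetected Klf5 probe gave no value to test, and 2 arrays a group set the width of every interval.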

Other observations

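Genes of FGF and ERK signalling feedback, 8 tested of 10 listed, held called genes both after dox and between the untreated lines. Dusp4, a phosphatase induced by ERK, read 9.30 and 9.27 at 24 h and 8.29 and 8.28 at 0 h in Tcf15-E47 cells, and rose by 1.00 (adjusted p = 0.000436). It rose by 0.69 at 12 h (adjusted p = 0.00241). The inhibitor Spry4 rose by 0.52 at 24 h (adjusted p = 0.0386). The list median was 0.28 at 12 h and 0.23 at 24 h, with 1 and 2 genes called higher. Before dox, Dusp4 was lower in Tcf15-E47 cells by −0.51 (adjusted p = 0.0208), the 1 called gene, with a list median of −0.23. With median scaling that median was −0.05 and 0 were called.

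Of immediate early genes 8 of 16 were tested. Between the untreated lines all 8 differences were negative, with a median of −0.33 (−0.31 with genes not above background at their bounds or left out), and 2 were called. Ier3 read 7.96 and 7.93 in Tcf15-E47 cells and 8.40 and 8.62 in parental cells, at −0.57 (adjusted p = 0.0314), and Zfp36, which destabilizes AU-rich mRNAs, differed by −0.41 (adjusted p = 0.0476). With median scaling the median was −0.17 and 0 were called. In the dox comparisons of Tcf15-E47 cells 0 were called.

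Of 6 tested primed epiblast genes, 4 rose at 24 h against 0 h in Tcf15-E47 cells, with a list median of 0.63: Fgf5 by 0.81, Pim2 by 0.76, Pou3f1 by 0.67 and Otx2 by 0.60. At 12 h Otx2, at 0.67, was the 1 called. Pim2 read higher at 8 h than at 0 h in both lines. It read 6.61 and 6.16 against 5.92 and 6.02 in parental cells, and 6.47 and 6.17 against 5.82 and 5.97 in Tcf15-E47 cells. Of the 6 differences in parental cells at 8 h, 2 were positive, 4 were negative and 0 were called. Untreated, Fgf5 was lower in Tcf15-E47 cells, at −0.95 (adjusted p = 0.0035).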
